A study of Arabidopsis thaliana with 28 samples.

Results

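The transcriptome of *Arabidopsis* seedlings expressing the phospho-dead version of INDETERMINATE-DOMAIN 4 (IDD4-AA) was compared with that of wild type (WT) plants. The comparison was made on the authors' table of FPKM values (fragment counts scaled by transcript length and by the number of mapped fragments), which holds 1 combined value for each group. Of the 27371 genes in the table, 18859 reached at least 1 FPKM in IDD4-AA or WT and were compared. Both groups were whole seedlings aged 14 days, raised under long days on MS plates without sugar. The WT was ColO. The *IDD4-AA* line carried *pUBI10*::*IDD4-AA*:*RFP* in ColO, so that an RFP-tagged IDD4 with alanine in place of serine 73 and threonine 130 was expressed from a constitutive ubiquitin promoter in plants that kept their own *IDD4* gene. The labels list 2 samples in each group whereas the study's text gives a larger number of replicates, so that the number of samples behind each combined value is in doubt. The labels also do not say whether the transgenic samples came from 1 line or from several. A treatment with the flagellin peptide flg22 stands in the treatment field of every sample in the series, but neither the titles nor the genotypes of these samples name it. Differences are given as the difference of log2(FPKM + 1), IDD4-AA minus WT, and folds are counted on the same scale. With 1 combined value per group there is no measure of the spread between plants, no test was made, and a difference of any size below describes these 2 values and not the genotype. The sequencing depth behind the values is unknown.

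IDD proteins are plant-specific zinc finger transcription factors that bind DNA motifs with the core AGACAA, known as *ID1*. IDD4 is a substrate of MPK6, a mitogen-activated protein kinase of the immune signaling cascade, and the alanine version cannot be phosphorylated at the exchanged residues. The 2 gene lists with medians farthest from WT were those of iron deficiency regulators and iron uptake. The lists were written with the study's terms of gene function for this line known, so their rank is not independent of these data. The study reported terms of starvation, root development and transport of metal ions for its lower genes and of sugar response for its higher genes. In iron-deficient *Arabidopsis* roots, the reductase FRO2 converts ferric to ferrous iron at the root surface and the transporter IRT1 carries it into the cell. Both genes are activated by the bHLH factor FIT, listed here as *FRU*, together with a partner from the group bHLH38, bHLH39, bHLH100 and bHLH101.

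The exchanged codons define the line and are therefore shown with the mutagenesis oligos that introduced them. *IDD4* (AT2G02080) lies on the minus strand of chromosome 2 (chr2:518079-521737, TAIR10.1) and has a coding sequence of 1551 bases, which encodes 516 residues. Both codons lie in coding exon 2, codon 73 at chr2:520632-520634 and codon 130 at chr2:520461-520463. Each oligo matched the coding strand with 1 mismatch, T217G in codon 73 and A388G in codon 130, counted from 1 at the first base of the start codon (reference base, position, base of the oligo). The codons are in capitals, 5′ to 3′.
Reference, codon 73: ggtagcattaTCTccaaagacacta
Oligo for alanine 73: ggtagcattaGCTccaaagacacta
Reference, codon 130: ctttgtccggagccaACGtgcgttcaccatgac
Oligo for alanine 130: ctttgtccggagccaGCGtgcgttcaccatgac

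*IDD4* itself reached 9.23 FPKM in WT and 71.6 FPKM in IDD4-AA, a difference of 2.83 on the log2 scale. The values of the other transgenic groups in the experiment were 198 FPKM in the phospho-mimicking IDD4-DD, which carries aspartic acid at the same residues, and 197 FPKM in the over-expressor IDD4ox. The *IDD4* transcript level in IDD4-AA thus lay between WT and the other lines. The study states that it chose *IDD4-AA* and *IDD4-DD* lines with comparable transcript levels and equal amounts of the protein on an immunoblot. These FPKM values do not measure protein. The FPKM of *IDD4* counts the gene and the transgene together. The other 11 compared members of the *IDD* family were within 1.5-fold of WT, as were 96.0% of all compared genes. *IDD5* had 31.7 FPKM in both groups. *IDD14* was at 8.33 FPKM in WT and 6.81 in IDD4-AA, and *IDD11* at 4.38 and 5.99. The genes of proteins in the pathway of IDD4 were at similar levels: *MPK6* had 15.8 FPKM in WT and 16.2 in IDD4-AA, *SCL3*, which encodes a GRAS protein that binds IDD4, 5.49 and 6.23, and the DELLA genes *GAI* 22.4 in both and *RGA1* 41.8 and 42.2. None of 15 compared partners was 1.5-fold from WT, which held for 96.0% of all compared genes.

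Between IDD4-AA and WT, the 2-fold threshold was passed by 58 genes in the higher direction (0.308% of those compared) and by 116 in the lower (0.615%). At least 1.5-fold, 349 genes were higher (1.85%) and 399 lower (2.12%), while 18111 genes (96.0%) were within 1.5-fold of WT. Of the genes past 2-fold, 33 of the 58 were below 1 FPKM in WT and 55 of the 116 below 1 FPKM in IDD4-AA, so that they entered the comparison only through the group where they were high. The median difference was 0.03 on the log2 scale, and 10372 genes (55.0%) were above and 8487 (45.0%) below WT. The genes next to the 2-fold threshold were, on the higher side, AT2G13550 (2.09 FPKM in WT, 5.24 in IDD4-AA) and AT5G04238 inside and AT1G52000 (4.05 and 9.07) and AT1G65570 outside. On the lower side they were *NAS2* (98.1 and 48.5) and *CYP71A13* inside and *CYP96A14P* and AT1G73120 (38.8 and 19.0) outside.

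Very short genes were frequent among the genes with large differences. Of the 174 genes at least 2-fold from WT, 144 had a length in the RefSeq table, and 50 of these (34.7%) were shorter than 600 bases, beside 1.2% of all compared genes. Without these and without genes listed at 0 in a column, 31 genes remained at least 2-fold higher and 56 at least 2-fold lower.

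**Figure D1:**
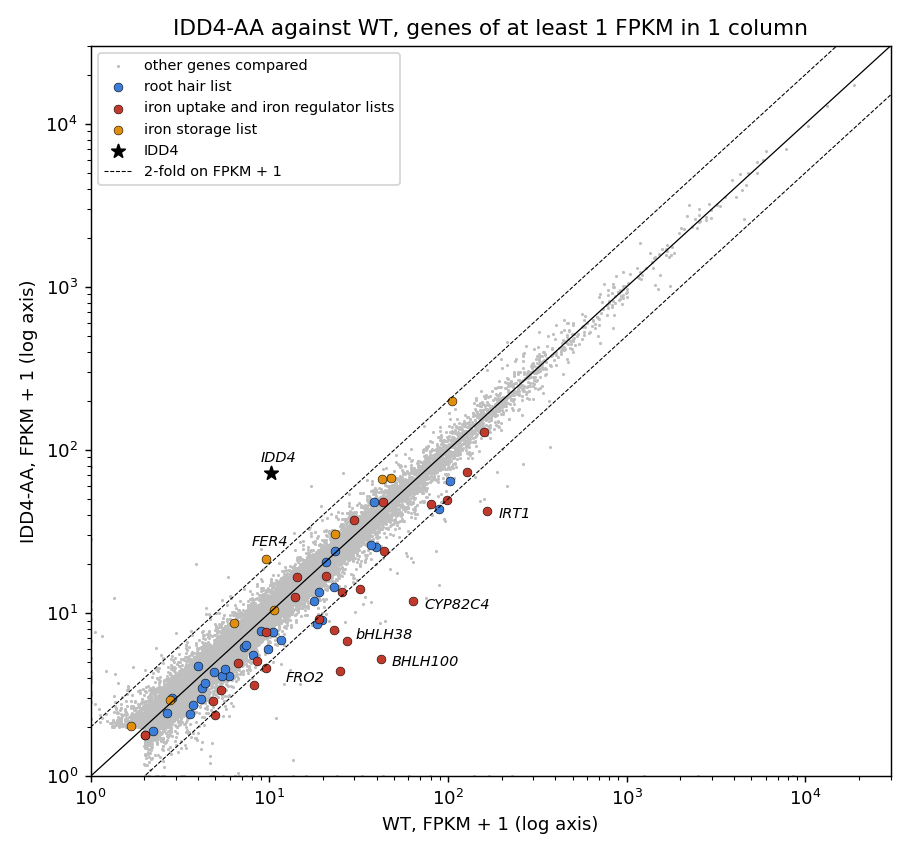
FPKM + 1 of each compared gene in WT (x axis) and IDD4-AA (y axis), both on log axes, 1 point per gene and 1 combined value per group. Blue points are the root hair list, red points the iron uptake and regulator lists, orange points the iron storage list and the star *IDD4*. The solid line marks equal values and the dashed lines a 2-fold difference. *IDD4* (9.23 and 71.6 FPKM) lies above the upper line and *BHLH100*, *FRO2*, *CYP82C4*, *bHLH38* and *IRT1* lie below the lower one.

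The genes of root iron uptake were lower in IDD4-AA. All 15 compared members of the list were below WT, 9 of them at least 1.5-fold and 6 at least 2-fold. Over all compared genes the shares were 45.0%, 2.12% and 0.615%. The median difference of the list was -0.75 beside 0.03 for all genes. Of the 15, *IREG2* (1.02 and 0.79 FPKM) and *FRO5* (1.01 and 0.80) were compared only through their WT values. Over the 13 members with at least 1 FPKM in both groups the median was -0.80. *IRT1*, the main ferrous iron transporter of the root epidermis, was at 165 FPKM in WT and 41.5 in IDD4-AA, a difference of -1.97. *FRO2* was at 23.8 and 3.41 FPKM (-2.49). *CYP82C4*, a cytochrome P450 that hydroxylates iron-mobilizing coumarins, was at 62.9 and 10.8 FPKM (-2.44). These were the members farthest from WT. *MTPA2*, which moves zinc into the root vacuole under iron deficiency, was at 17.9 and 8.18 FPKM. The nicotianamine synthase genes *NAS2* and *NAS1*, which make a metal chelator, were at 98.1 and 48.5 and at 127 and 72.8 FPKM. *IRT2*, a transporter of root vesicles, was at 7.58 and 4.1 FPKM, and the proton pump gene *HA7* at 3.83 and 1.88. *MYB10*, a regulator of *NAS4*, was at 3.99 and 1.38 FPKM. The gene of FIT itself was closer to WT, with 19.7 FPKM in WT and 15.9 in IDD4-AA, as was *HA2*, the main proton pump of rhizosphere acidification, with 159 and 128 FPKM.

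The bHLH partners of FIT showed larger differences. *BHLH100* was at 41.0 FPKM in WT and 4.24 in IDD4-AA (-3.00), *bHLH38* at 26.1 and 5.77 (-2.00), *bHLH39* at 22.01 and 6.84 (-1.55), and *BHLH101* at 7.22 and 2.64 (-1.18). All 4 genes of this group were thus at least 2-fold lower. *bHLH38* and *bHLH39* are neighbors on chromosome 3. The list of iron deficiency regulators, which holds them, had 14 compared members and a median of -0.89. At least 1.5-fold lower were 10 and at least 2-fold 6, beside 2.12% and 0.615% of all compared genes. Its other lower members were *PYE*, a transcriptional repressor of the iron response (8.61 FPKM in WT and 3.6 in IDD4-AA), *BTS*, a ubiquitin ligase that acts against it (42.7 and 23.0), the mitochondrial reductase gene *FRO3* (31.1 and 13.0), *OPT3*, a transporter that loads iron into the phloem (79.8 and 45.7), *NAS4* (24.4 and 12.4) and the nicotianamine transporter gene *ZIF1* (4.34 and 2.36). The bHLH factors that act upstream of this group were near WT: *ILR3* was at 28.7 and 36.4 FPKM, *bHLH115* at 42.3 and 47.2, *bHLH104* at 13.0 and 11.6, and *bHLH121* at 13.4 and 15.6. The regulator list therefore split between these 4 genes and the 10 others, which were all at least 1.5-fold lower.

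Genes of iron storage had the opposite direction. Of 9 compared members 8 were above WT and 3 at least 1.5-fold higher, beside 55.0% and 1.85% of all compared genes. The median of the list was 0.45. Of the 8 members above WT, *FER2* (0.68 and 1.02 FPKM) was compared only through its IDD4-AA value. The ferritin gene *FER4* was at 8.55 FPKM in WT and 20.6 in IDD4-AA (1.18), *FER1* at 41.7 and 65.6 (0.64) and *FER3* at 22.3 and 29.6 (0.39). Ferritins hold iron in plastids and mitochondria. *NEET*, which encodes an iron-sulfur protein, was at 105 and 198 FPKM (0.91). Of the genes of coumarin synthesis and export, which mobilize ferric iron in the rhizosphere, 1 of 4 compared was 1.5-fold lower, the synthesis gene AT3G13610, at 71.8 and 47.1 FPKM. *ABCG37*, the exporter, was at 18.6 and 14.7 FPKM.

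**Figure D2:**
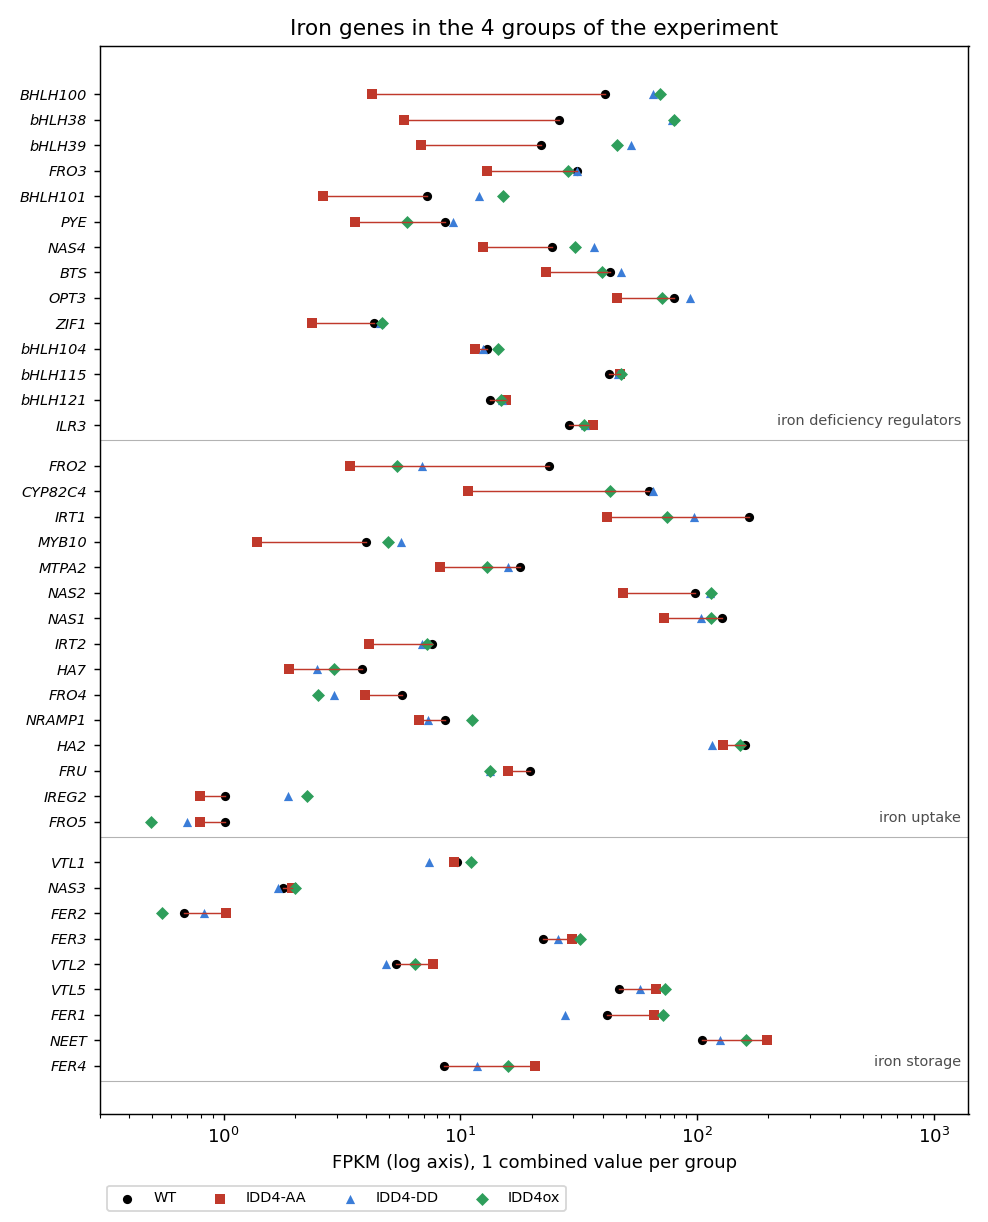
FPKM on a log axis of the compared members of the lists of iron deficiency regulators, iron uptake and iron storage (1 row per gene) in WT, IDD4-AA, IDD4-DD and IDD4ox, 1 combined value per group. Red lines join WT and IDD4-AA. IDD4-AA has the lowest value of the 4 groups for *BHLH100* (4.24), *bHLH38* (5.77), *FRO2* (3.41) and *IRT1* (41.5) and the highest for *FER4* (20.6) and *NEET* (198).

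The other lines of the experiment share the WT value with IDD4-AA, so their values are set side by side. *BHLH100* was at 65.1 FPKM in IDD4-DD and 69.6 in IDD4ox, *bHLH38* at 78.2 and 79.5, *bHLH39* at 52.6 and 45.8 and *BHLH101* at 11.97 and 15.2, all above WT. *FRO2* was below WT there too, at 6.90 FPKM in IDD4-DD and 5.41 in IDD4ox, as was *IRT1*, at 96.7 and 74.6. Of the 19 members of both iron lists that were at least 1.5-fold lower in IDD4-AA, 8 were above WT in both other lines and 7 below it in both. The median of the regulator list was 0.19 in IDD4-DD and 0.15 in IDD4ox, and that of the uptake list -0.24 and -0.30. Higher iron storage genes were not particular to IDD4-AA. In IDD4ox *FER1* was at 71.9 FPKM and *FER3* at 32.0, both above IDD4-AA, and *FER4* at 15.9 and *NEET* at 161, between WT and IDD4-AA. In IDD4-DD *FER1* was below WT at 27.8 FPKM, while *FER3* (25.7), *FER4* (11.7) and *NEET* (125) were above it. The lines also differed in their *IDD4* transcript level, as given above.

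The iron genes also differed between the WT groups of the series. The untreated WT of the other experiment, tabulated and normalized separately, had 4.12 FPKM of *BHLH100*, 5.29 of *bHLH38* and 4.99 of *bHLH39*, each closer to the IDD4-AA value than to the WT value used here. Its *FRO2* was at 9.84, its *IRT1* at 74.3 and its *CYP82C4* at 25.6 FPKM, all between WT and IDD4-AA. Of the 15 compared uptake members, 14 were lower in that WT than in this one. The regulator list did not follow this: 6 of its 14 members were lower there, and *BTS* (59.5 FPKM), *OPT3* (118) and *PYE* (21.2) were higher. The iron storage genes of that WT were a median of 0.50 above this WT on the log2 scale, beside 0.45 for IDD4-AA, and 2 of the 9 were below it. How far the levels of these genes vary between batches of WT seedlings was not tested.

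The upstream sequences of the genes on which the iron result turns are shown to let the *ID1* core and the G-box, the site of many bHLH factors, be seen in place. The 250 bases before the annotated gene start were read from TAIR10.1. Matches to AGACAA (*ID1* core) or CACGTG (G-box) on either strand are in capitals. No sequence shown overlaps another annotated gene.
BHLH100, chr2:17199455-17199704, minus strand: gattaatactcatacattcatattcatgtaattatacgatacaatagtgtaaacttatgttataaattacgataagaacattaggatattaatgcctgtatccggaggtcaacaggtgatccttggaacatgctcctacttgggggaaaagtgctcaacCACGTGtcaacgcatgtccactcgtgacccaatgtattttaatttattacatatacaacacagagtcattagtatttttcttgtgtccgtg
bHLH38, chr3:21085246-21085495, minus strand: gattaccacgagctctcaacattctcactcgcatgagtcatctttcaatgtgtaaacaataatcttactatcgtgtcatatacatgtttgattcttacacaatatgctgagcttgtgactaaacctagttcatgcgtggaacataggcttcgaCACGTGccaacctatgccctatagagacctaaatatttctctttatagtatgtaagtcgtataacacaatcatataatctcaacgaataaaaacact
bHLH39, chr3:21087711-21087960, minus strand: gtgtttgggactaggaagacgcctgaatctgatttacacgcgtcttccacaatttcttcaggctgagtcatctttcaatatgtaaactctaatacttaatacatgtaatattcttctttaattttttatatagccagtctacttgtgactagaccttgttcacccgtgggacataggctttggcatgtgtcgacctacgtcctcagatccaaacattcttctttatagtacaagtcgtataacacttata
BHLH101, chr5:1139634-1139883, minus strand: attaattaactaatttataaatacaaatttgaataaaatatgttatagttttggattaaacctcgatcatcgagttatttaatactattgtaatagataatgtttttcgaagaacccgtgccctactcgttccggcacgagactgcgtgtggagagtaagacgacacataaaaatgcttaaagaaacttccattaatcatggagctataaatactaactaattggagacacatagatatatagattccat
IRT1, chr4:10707094-10707343, plus strand: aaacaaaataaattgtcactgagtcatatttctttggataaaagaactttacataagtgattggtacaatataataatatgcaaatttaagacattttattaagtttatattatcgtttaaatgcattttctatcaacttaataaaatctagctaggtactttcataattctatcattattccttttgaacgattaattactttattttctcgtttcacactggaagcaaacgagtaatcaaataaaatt
FRO2, chr1:208745-208994, plus strand: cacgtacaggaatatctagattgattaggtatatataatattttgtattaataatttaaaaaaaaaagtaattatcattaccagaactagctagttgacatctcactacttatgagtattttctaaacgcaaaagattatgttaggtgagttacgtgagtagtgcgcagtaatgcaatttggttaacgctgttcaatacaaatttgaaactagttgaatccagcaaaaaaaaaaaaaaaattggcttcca

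A G-box stands upstream of *BHLH100* and *bHLH38* and no *ID1* core occurs in any of these 6 sequences. In windows from 250 bases before to 50 bases after the start, 6274 of 26697 genes (23.5%) held an *ID1* core and 2080 (7.79%) a G-box. Of the 29 compared members of the iron uptake and regulator lists, 9 held an *ID1* core (31.0%) and 5 a G-box (17.2%), the latter being *BHLH100*, *bHLH38*, *FRO3*, *BTS* and *OPT3*. All 5 with a G-box were at least 1.5-fold lower, as were 19 of all 29 members and 5 of the 9 with an *ID1* core. Of the 9 iron storage genes, which were mostly higher, 3 held a G-box (33.3%). Over all compared genes, 1.73% of those with a G-box and 2.02% of those without were at least 1.5-fold lower, and 2.48% and 1.7% at least 1.5-fold higher. For the *ID1* core, 1.87% of those with it and 2.03% of those without were at least 1.5-fold lower, and 1.71% and 1.79% at least 1.5-fold higher. These matches describe the letters of the window and no binding.

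Root hair genes were mostly lower in IDD4-AA as well. Of 32 compared members of the root hair list, 28 were below WT and 9 at least 1.5-fold lower (28.1%), with a median of -0.46. Over all compared genes the shares were 45.0% and 2.12%. Of the 32, 1 was compared only through its WT value. Root hairs are outgrowths of the root epidermis, the tissue that also expresses *IRT1* and *FRO2*. The cell wall protein genes *PRP3* (88.3 FPKM in WT and 42.6 in IDD4-AA), *PRP1* (18.8 and 8.05) and *LRX1* (17.62 and 7.53) were the members at least 2-fold lower. The arabinogalactan protein gene *AGP3* was at 102 and 63.5 FPKM, the xyloglucan enzyme gene *XTH14* at 38.5 and 24.3, and the expansin gene *EXPA7* at 17.9 and 12.5. Among the regulators of hair growth, *RSL4*, which drives hair elongation, was at 2.61 and 1.4 FPKM, *RSL2* at 4.65 and 3.57, and *RHD6*, which specifies the hair cell, at 2.99 and 3.74. *SCN1*, which keeps hair growth to 1 site of the cell, was at 37.6 and 46.8 FPKM, the member farthest above WT. The summed level of the list was 535 FPKM in WT, 369 in IDD4-AA, 316 in IDD4-DD and 338 in IDD4ox. The untreated WT of the other experiment was lower still than any of these, with a sum of 138 FPKM, and all 32 members were below IDD4-AA there, a median of -1.60 from this WT. The 2 WT groups thus lay farther apart in this list than IDD4-AA and WT. Medians were -0.52 in IDD4-DD and -0.45 in IDD4ox, and 27 of the 32 members were below WT in all 3 lines.

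Extensins are cell wall proteins, several of which are laid down in growing hairs. The word extensin stands in the RefSeq product of 56 genes, which include members of the root hair list. Not all are extensins: the set also holds Pollen Ole e 1 allergen and extensin family genes and receptor kinase genes such as *PERK1*. Of the 56, 41 were compared, 32 of these were below WT and 19 at least 1.5-fold lower, with a median of -0.50. Over all compared genes the shares were 45.0% and 2.12%. The 2 at least 1.5-fold higher, AT3G16660 and AT3G16670, are Pollen Ole e 1 family genes. *EXT6* was at 62.6 FPKM in WT and 19.5 in IDD4-AA, *EXT12* at 29.3 and 9.17, *EXT10* at 61.1 and 20.7, *EXT13* at 95.0 and 35.6, and *HRGP1* at 94.1 and 36.6. In IDD4-DD they were between 9.75 (*EXT12*) and 32.9 (*HRGP1*) FPKM. This set was counted and these genes were named after values were seen, *HRGP1* is not in the set, and the repeats of these genes are alike, so that reads may be shared between them.

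Other root markers were closer to WT. Of 16 compared genes of the endodermis and Casparian strip, 13 were below WT and none was 1.5-fold lower, with a median of -0.18. Over all compared genes the shares were 45.0% and 2.12%. *CASP1*, which builds the Casparian strip, was at 66.2 and 44.9 FPKM. The list of root tip and root transport markers had a median of 0.02 over 13 genes and 1 member 1.5-fold lower, *MYB93*, at 7.52 and 4.39 FPKM. In whole seedlings, fewer cells of a type and less RNA per cell cannot be told apart. The medians of the root hair list were of similar size in IDD4-DD and IDD4ox. In both lines the bHLH partners of FIT were above WT, while *FRO2*, *IRT1* and the median of the uptake list were below it. The part of root or root hair content in the lower iron uptake genes of IDD4-AA was not tested.

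**Figure D3:**
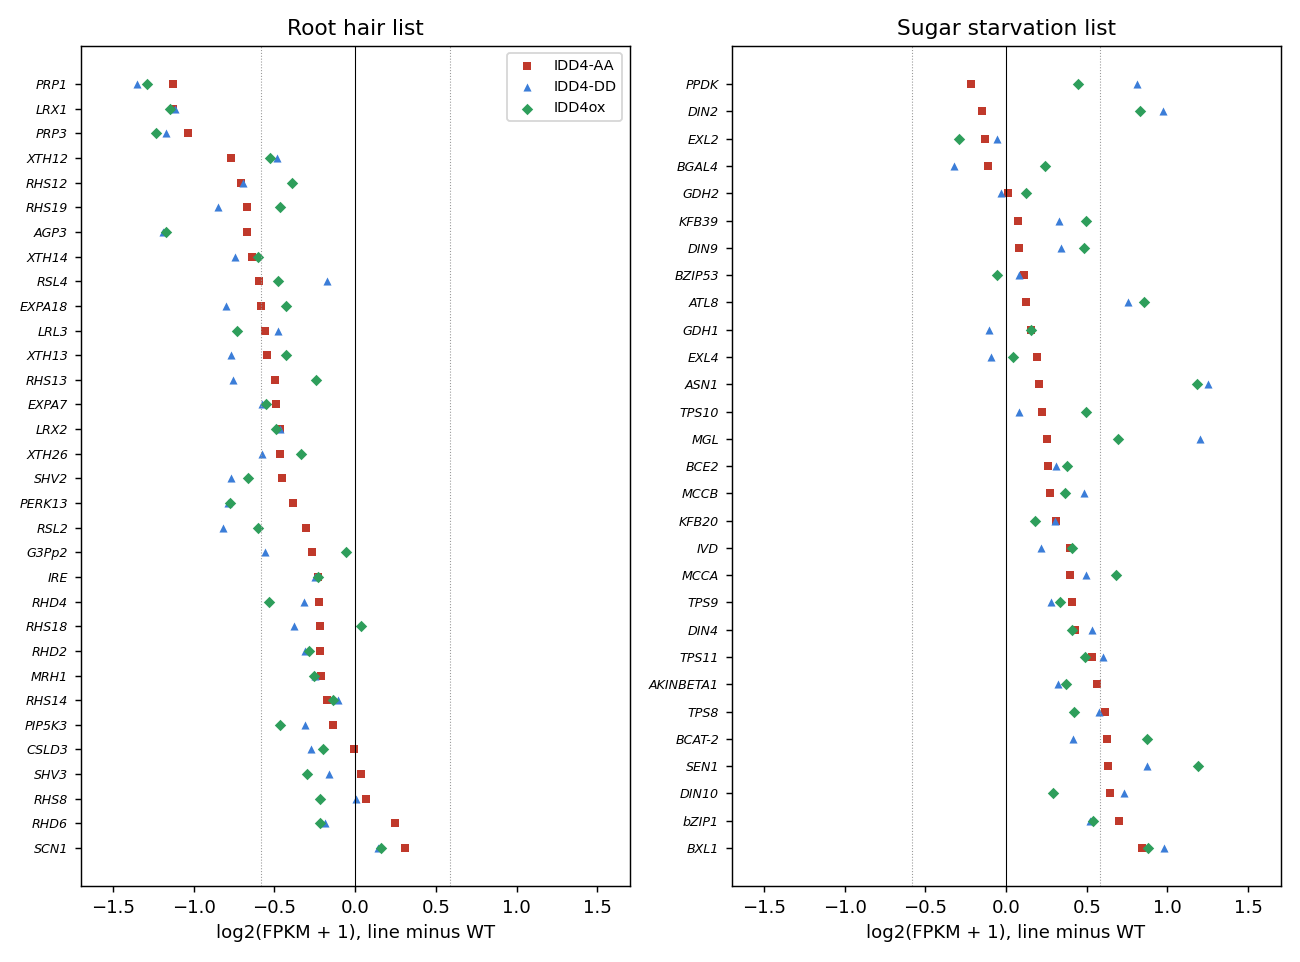
Difference of log2(FPKM + 1) from WT for the compared members of the root hair list (left) and the sugar starvation list (right) in IDD4-AA, IDD4-DD and IDD4ox, 1 combined value per group. Dotted lines mark 1.5-fold. In IDD4-AA 28 of 32 root hair genes lie left of zero and 25 of 29 sugar starvation genes right of it.

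Genes induced by sugar starvation and darkness were somewhat higher. Of 29 compared members 25 were above WT, 6 of them at least 1.5-fold and none 2-fold, with a median of 0.26. Of all compared genes, 55.0% were above WT and 1.85% at least 1.5-fold higher. *BXL1*, a cell wall xylosidase, was at 10.3 FPKM in WT and 19.3 in IDD4-AA, *bZIP1*, a transcription factor of the low-energy response, at 27.1 and 44.6, *DIN10* at 81.3 and 128, *SEN1* at 4.07 and 6.84 and *TPS8*, a trehalose phosphate synthase family gene, at 16.7 and 26.1. *BCAT-2*, which degrades branched-chain amino acids, was at 0.31 and 1.03 FPKM and was compared only through its IDD4-AA value. *ASN1*, an asparagine synthetase gene strongly induced in the dark, was at 2.56 and 3.11 FPKM in these groups and at 7.48 in IDD4-DD. The median of the list was 0.42 in IDD4-DD and 0.42 in IDD4ox, and 21 members were above WT in all 3 lines. AT3G15450, an aluminum induced protein gene of no list, was at 213 and 455 FPKM and its relative AT4G27450 at 5.07 and 11.7 FPKM. Both were named after their values were seen.

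Values of 3 smaller groups are given next. Of 18 compared genes of sulfur starvation and assimilation 17 were above WT, beside 55.0% of all compared genes, with a median of 0.27. The 1 gene at least 1.5-fold higher was *LSU1*, at 31.1 FPKM in WT and 53.6 in IDD4-AA. It was at 77.5 FPKM in IDD4-DD and 77.4 in IDD4ox. Of 11 flowering time genes 9 were above WT, with a median of 0.37. At least 1.5-fold higher were 3, beside 1.85% of all compared genes. They were *SPL3* (5.73 and 9.41 FPKM) and *SPL4* (3.62 and 6.04), which promote the floral transition, and *MAF5* (0.43 and 1.29), a repressor of it that was compared only through its IDD4-AA value, as was *SPL5* (0.59 and 1.28). Over all 16 matched members without a filter the median was 0.15. The median of 37 jasmonate genes was 0.11. Of these, 6 were at least 1.5-fold higher and 3 at least 2-fold, beside 1.85% and 0.308% of all compared genes. *TIFY7*, a JAZ repressor, was at 4.41 and 11.0 FPKM and *MBP1*, a myrosinase-binding protein gene, at 3.66 and 8.62. The third, *JAZ7*, was at 0.59 and 2.38 FPKM, was compared only through its IDD4-AA value and was named after its value was seen. The storage protein gene *VSP2*, a common jasmonate marker, was at 45.0 and 69.4 FPKM, and the defensin gene *PDF1.2* at 7.2 and 4.4.

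**Figure D4:**
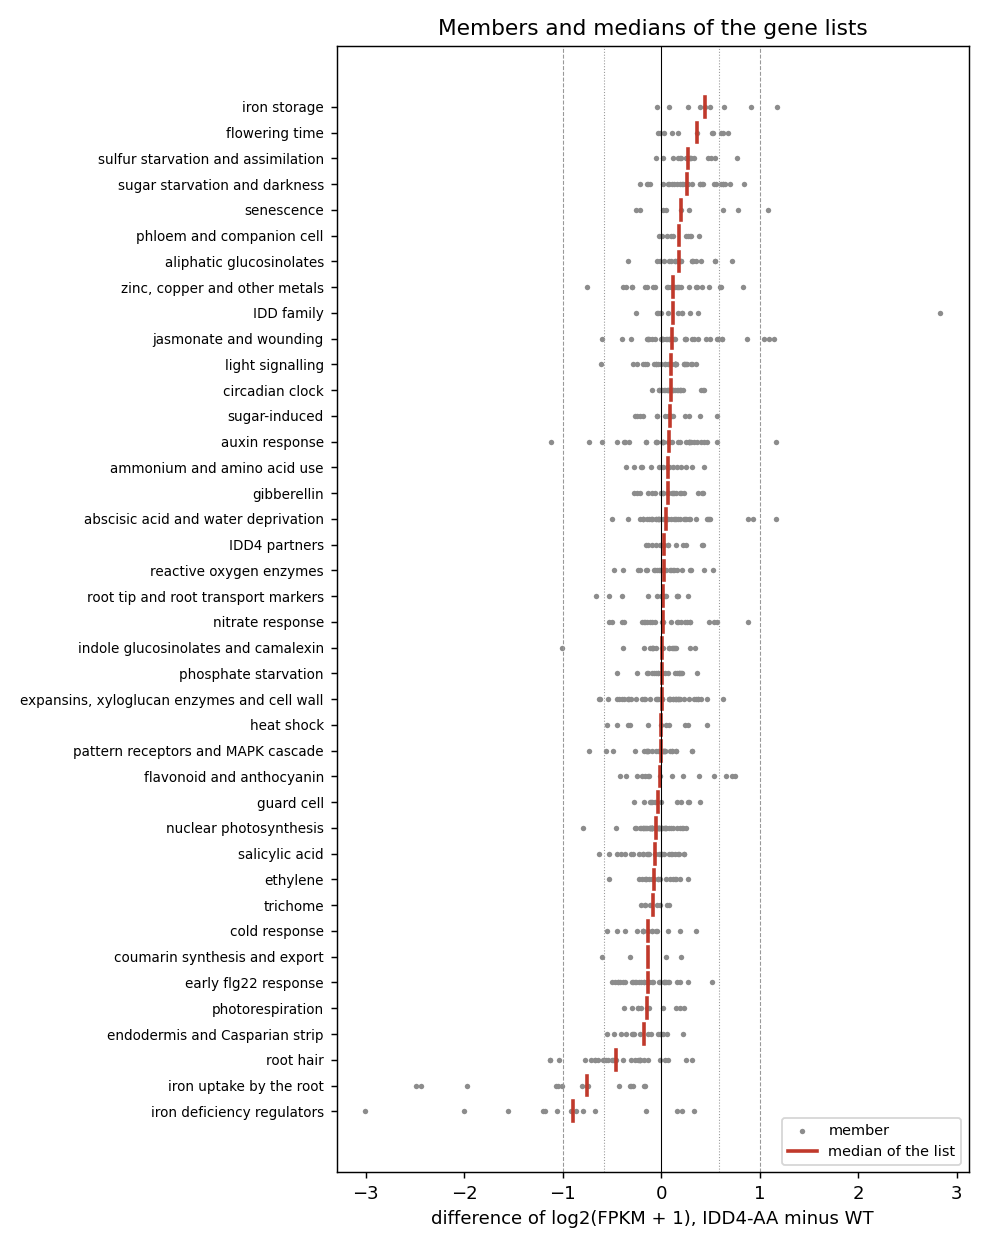
Difference of log2(FPKM + 1), IDD4-AA minus WT, of each compared member (gray points) and the median (red bar) of the gene lists with at least 4 compared members. Dashed lines mark 2-fold and dotted lines 1.5-fold. The lists of iron deficiency regulators (-0.89), iron uptake (-0.75) and root hair (-0.46) have the lowest medians and iron storage (0.45) the highest. The lists were written with the study's terms of gene function for this line known.

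Immune genes were near WT, as were most genes, since 96.0% of all compared genes were within 1.5-fold of it. The salicylic acid list had a median of -0.06 over 30 compared genes, with 1 gene 1.5-fold lower, *WRKY54*, at 11.5 FPKM in WT and 7.08 in IDD4-AA. *UGT74F2* (*SAGT1*), which glucosylates salicylic acid and was studied as a direct target of IDD4, was at 59.8 FPKM in WT, 54.2 in IDD4-AA, 54.6 in IDD4-DD and 56.5 in IDD4ox. The probe with which IDD4 binding to its promoter was assayed *in vitro* occurs once in the genome, at chr2:18151968-18152002, 76 bases before the annotated start of the gene on the plus strand. The study counts more than 1 *ID1* motif in it, while the exact letters AGACAA, in capitals, occur once. The mutated probe differs at 11 positions and holds no exact match.
SAGT1 probe: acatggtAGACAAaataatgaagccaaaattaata
Mutated probe: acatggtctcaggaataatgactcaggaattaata

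The defense marker *PR1* was low in both groups, at 0.17 FPKM in WT and 0.32 in IDD4-AA, beside 11.1 in IDD4-DD. The inhibitors of salicylic acid signaling *NIMIN1* and *WRKY38* were at 8.85 and 8.05 FPKM and at 1.35 and 0.62 FPKM. *WRKY38* was compared only through its WT value, and was at 0.40 FPKM in IDD4-DD and 0.26 in IDD4ox. The biosynthesis gene *EDS16* (*ICS1*) was at 1.16 and 1.12 FPKM, the receptor gene *NPR1* at 16.8 in both, and the regulator gene *CBP60G* at 8.05 and 6.04. *PR5* was at 9.36 and 6.57 FPKM. None of 33 compared early flg22 response genes was 1.5-fold from WT, with a median of -0.13. Below WT were 23 of the 33, beside 45.0% of all compared genes. *STZ*, a zinc finger gene of this list, was at 180 and 134 FPKM. In the list of pattern receptors and MAPK cascade genes, *MEK1* was the only one of 26 compared that was 1.5-fold from WT, at 3.49 and 1.71 FPKM.

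Genes bound by IDD4 passed the 1.5-fold threshold in shares near those of all genes. The study mapped the binding of IDD4:GFP in chromatin of lines with the unmodified protein, and 721 of its 837 target identifiers were compared here. Of these, 14 were at least 1.5-fold lower (1.94%) and 11 at least 1.5-fold higher (1.53%), beside 2.12% and 1.85% of all compared genes, and the median was 0.03 as for all genes. The targets included 3 of the 29 compared iron uptake and regulator genes, namely *OPT3* and *ZIF1*, which were at least 1.5-fold lower, and *bHLH121*, which was not. *MEE3* (12.8 FPKM in WT and 30.1 in IDD4-AA), a MYB-like gene, was the target with the largest difference above WT. The largest below WT was that of AT4G08410, a proline-rich extensin-like gene, at 32.5 and 10.3 FPKM. It was at 9.09 FPKM in IDD4-DD and 9.30 in IDD4ox. *TPI*, a triosephosphate isomerase gene, was at 30.1 and 14.9 FPKM and *CGLD27*, a plastid protein gene, at 31.2 and 18.4. *TPI* was at 14.1 in IDD4-DD and 17.3 in IDD4ox. These targets were named after their values were seen.

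Among the 15 genes farthest below WT with at least 5 FPKM in a column and above 0 in both, 5 were matched members of the iron lists. The names *IMA1*, *IMA2* and *IMA3* of the regulator list matched no gene name, so that the count of 5 may be too low. Of the 15, 6 were above WT in both IDD4-DD and IDD4ox, and 6 were below it in both, *FRO2* and *IRT1* among them. Several others of the 15 have no gene name in the RefSeq table. AT1G47400 was at 88.1 FPKM in WT, 13.9 in IDD4-AA, 170 in IDD4-DD and 167 in IDD4ox. AT1G47395, the next annotated gene before it, was at 84.3, 23.0, 408 and 390 FPKM. AT2G14247 was at 74.2, 11.4, 140 and 117 FPKM, and the defensin-like gene AT1G13609, which is shorter than 600 bases, at 40.7, 7.68, 116 and 121. These 4 genes were lower in IDD4-AA and higher in both other lines than in WT, as were the 4 bHLH partners of FIT. *BBX14*, a B-box zinc finger gene outside the 15 that was chosen after its values were seen, was at 150 FPKM in WT and 48.0 in IDD4-AA, and at 156 and 152 in the other lines.

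Among the 15 genes farthest above WT, *PAO2*, a polyamine oxidase gene, was at 0.15 FPKM in WT and 6.29 in IDD4-AA, and AT1G29950, a bHLH gene, at 0.35 and 11.5. The identifiers next to them moved the other way: AT2G43018 was at 21.4 and 14.7 FPKM and AT1G29951 at 22.2 and 17.5. AT4G25670 was at 0.01 and 9.57 FPKM, and AT4G25672 at 39.2 and 28.7. Looked up after their values were seen, 7 such pairs of neighboring identifiers, with 1 member at least 2-fold from WT, had opposite directions, *SAMDC* (0.22 and 3.39) with AT3G02468 (499 and 476) and AT5G45428 (12.6 and 0.27) with AT5G45430 (14.5 and 26.6) among them. Whether reads of overlapping loci were divided differently in the 2 groups was not tested. *ATRZ-1A*, an RNA-binding protein gene, was at 3.42 and 9.76 FPKM and at 2.37 in IDD4-DD and 3.06 in IDD4ox.

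Genes listed at 0 are given apart, since a 0 can be a failed estimate. Of the 174 genes at least 2-fold from WT, 49 were at 0 in a column. With at least 5 FPKM in WT, 20 genes were listed at 0 in IDD4-AA, and 18 of these were also at 0 in IDD4-DD or IDD4ox. The highest was AT1G65541, listed at 8520 FPKM in WT and at 0 in the 3 transgenic groups. The plastid genes ATCG00690 and ATCG00220 were listed at 2505 and 1253 FPKM in WT and at 0 in IDD4-AA. In the other direction 5 genes were listed at 0 in WT, among them ATCG00600 (77.3 FPKM in IDD4-AA) and *RTFL14* (27.6), which encodes a small peptide of the ROTUNDIFOLIA-like family. Of these 25 genes, 16 had a length and 15 were shorter than 600 bases. Nuclear photosynthesis genes, in contrast, were near WT, with a median of -0.05 over 52 genes and 1 member 1.5-fold lower, *RBCS1B*, at 4516 and 2606 FPKM. *RBCS1A*, the gene with the highest FPKM of the list, was at 18810 and 17277.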

How the data were processed

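RNA of whole seedlings was sequenced in pairs of reads. The authors trimmed the reads with Trimmomatic, aligned them to TAIR10 with TopHat and computed FPKM with Cufflinks, and deposited 1 combined FPKM value per gene and group, so replicates could not be separated. The deposited identifiers do not stand beside their own values, and 21642 were out of alphabetical place. Once sorted, they matched 1900 of 1900 WT values that the study tabulates for the other sheet (within 0.001 FPKM), beside 534 in the deposited order, and both sheets list identifiers in 1 order. The sorted order was used throughout.

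Values were compared as log2(FPKM + 1) where WT or IDD4-AA reached 1 FPKM, with folds of 2 and 1.5 as thresholds. Of 1034 names in 42 gene lists, 900 matched by symbol, 74 by synonym and 17 by hand, while 39 were unmatched and 4 repeated another. Named genes were *IDD4*, its family and genes the study names for this line, the 15 largest differences each way (at least 5 FPKM, above 0 in both), up to 6 members per list of at least 5 FPKM, any member of the iron, root hair and sugar starvation lists, genes listed at 0, and those next to the 2-fold threshold. The compared genes and lists were chosen with earlier results of these data known. Binding targets (identifiers only) and oligo sequences came from the study's supplementary tables, and names, lengths and genome sequence from RefSeq (TAIR10.1). Python 3.11.15, pandas 2.3.3, NumPy 2.4.6 and matplotlib 3.10.9 were used, and the steps were tested on simulated data.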

Additional observations from a re-analysis of the deposited data

How the results depend on the processing

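No paired analysis was possible because each group has 1 combined column that carries no replicate number, and no replicate could be left out for the same reason. The largest dependence was on the gene identifiers. In the deposited row order, the list medians were 0.0178 for iron uptake, -0.0437 for iron regulators, 0.0276 for iron storage, 0.0076 for root hair, 0.0405 for sugar starvation, 0.0829 for endodermis and -0.0617 for pollen, and 4 of the 58 higher and 12 of the 116 lower genes were the same. With sorted identifiers, 281 of 294 recomputed list medians moved by less than 0.1. The counts at 2-fold depended on how low values were treated. A pseudocount of 0.1 gave 174 higher and 214 lower genes and an uptake median of -0.87, and a pseudocount of 0.5 gave 103 higher and 154 lower genes. A minimum of 5 FPKM gave 31 higher and 77 lower genes and a root hair median of -0.56. Leaving out genes listed at 0 gave 44 and 81, and scaling by the median of ratios 56 and 120. The depth is unknown, and the spread between plants cannot be estimated from these columns.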

Other observations

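Some gene groups outside the comparisons above held single members with higher values in IDD4-AA, while their medians were near that of all genes. Over all compared genes, 1.85% were at least 1.5-fold higher and 2.12% at least 1.5-fold lower. Of 43 abscisic acid and water deprivation genes, 3 were at least 1.5-fold higher: *RAB18*, a dehydrin gene, at 19.9 FPKM in WT and 37.6 in IDD4-AA, the histone gene *HIS1-3* at 3.41 and 8.92, and the lipid transfer protein gene *LTP4* at 4.24 and 9.03. The median of the list was 0.05. In IDD4-DD and IDD4ox *RAB18* was at 105 and 159 FPKM, *HIS1-3* at 13.1 and 24.3 and *LTP4* at 16.9 and 23.8. All 3 were thus higher in those lines than in IDD4-AA. Of 15 flavonoid genes, 3 were at least 1.5-fold higher, with a median of -0.01. Among the 3 were the late anthocyanin genes *DFR* (4.05 and 7.31 FPKM) and *LDOX* (6.56 and 11.0). Both were higher still in IDD4-DD and IDD4ox, *DFR* at 15.5 and 12.8 FPKM and *LDOX* at 26.5 and 22.5.

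Aliphatic glucosinolate genes were above WT in 18 of 21 cases, beside 55.0% of all compared genes, with a median of 0.18. The 1 gene at least 1.5-fold higher was *MAM1*, which elongates the methionine side chain, at 36.6 and 61.0 FPKM. Of 26 genes of zinc, copper and other metals, 3 were higher and 1 was lower by this threshold. The lower was the copper transporter gene *COPT2*, at 87.5 FPKM in WT and 51.6 in IDD4-AA. Of 12 senescence genes 9 were compared and 3 of these were at least 1.5-fold higher, of which *NAP* (0.61 FPKM in WT and 2.42 in IDD4-AA) was compared only through its IDD4-AA value. Among the others was *NYC1*, a chlorophyll b reductase gene, at 88.9 and 138 FPKM. None of 25 circadian clock genes and none of 23 gibberellin genes was 1.5-fold from WT, which held for 96.0% of all compared genes.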
